A study of Mus musculus with 12 samples.

Results

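The semaphorins described here are 10 genes, Sema3a, Sema3b, Sema3c, Sema3d, Sema3e, Sema3f, Sema4f, Sema5a, Sema6d and Sema7a, of the 55401 genes in the expression table of mouse bone marrow mesenchymal stem cells (MSCs). They were picked by name from the 20 semaphorin genes in the table. Of the 10, 7 passed the filter on low values, an FPKM (fragments per kilobase of gene model, scaled to the mapped fragments) of 1 or more in 3 or more of the 12 libraries, and were tested. Sema3d, Sema3e and Sema6d did not reach it. Sema3f and Sema5a would not have reached it without the untreated libraries, nor Sema4f without those with supernatant, so they were bound to differ between some groups, and counts over the tested members are given as a description.

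The study asked how supernatants of myeloid-derived suppressor cells (MDSCs) act on MSCs that TGF-β1 turns towards myofibroblasts, the contractile cells that lay down scar matrix. MSCs of C57BL/6 mice, bought from a commercial supplier, were left untreated or were given TGF-β1 at 5 ng/mL. Others were given this TGF-β1 together with supernatant of monocytic MDSCs (TGF-β1/M-MDSC supernatant) or of granulocytic MDSCs (TGF-β1/G-MDSC supernatant). Both kinds of MDSC were grown from bone marrow cells and sorted, and their supernatants are mixtures of secreted products. Each group had 3 libraries of polyadenylated RNA. No group with supernatant and without TGF-β1 was among these libraries. What the replicate numbers stand for was not given in the sources used here, so the p-values measure only the spread between libraries, which may be technical. In bulk RNA, fewer cells of a type and less RNA per cell cannot be told apart.

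Semaphorins are guidance proteins, first known for steering axons, that also act on vessels, bone, immune cells and connective tissue. The class 3 proteins are secreted and mostly bind neuropilins, which hold them in a complex with plexin-A receptors. Classes 4, 5 and 6 span the membrane, and class 7 is held on the outer membrane by a lipid anchor. Plexins pass the signal inwards through small GTPases and actin, and cells that receive it often retract or turn away.

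The libraries held 73977669 to 84565450 counts. The 8 MSC markers had a summed FPKM of 500 to 598, and 6 to 7 of them reached an FPKM of 1 in each group, whereas 4 endothelial and progenitor markers summed to 0.417 FPKM at most. The MSC markers moved in both directions within that sum. With TGF-β1, all 7 that were tested were called by edgeR at an adjusted p under 0.05, 4 higher and 3 lower, where 34.0% of all tested genes were called. Ly6a, which encodes the stem cell antigen Sca-1, was at 245 ± 5.35 FPKM in untreated MSCs, 16.2 ± 2.92 with TGF-β1, 92.5 ± 10.1 with added M-MDSC supernatant and 66.9 ± 3.20 with added G-MDSC supernatant. Pdgfra fell from 14.0 to 4.95 FPKM and Thy1 from 4.49 to 2.16 FPKM with TGF-β1, and Itgb1 rose from 254 to 385 FPKM. The part of these markers in the values of the semaphorins was not tested. The myeloid granule genes Mpo and Elane were at 0 counts in every group. The 14 myeloid markers summed to 4.26 to 4.51 FPKM in untreated MSCs, where Ly6g and Ly6c2 were the markers at or above 1 FPKM, and to 1.18 to 1.35 FPKM with TGF-β1. They summed to 2.05 to 4.52 FPKM with TGF-β1/M-MDSC supernatant and to 3.41 to 7.54 FPKM with TGF-β1/G-MDSC supernatant, where 1 library held 3.40 FPKM of S100a9 and the others 0. S100a9, a calcium-binding protein of neutrophils and monocytes, had 43, 12 and 23 counts (0.980, 0.258 and 0.490 FPKM) in the libraries with M-MDSC supernatant, and 0 in all untreated libraries and all with TGF-β1 alone.

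The makeup of the 10 semaphorins differed between untreated MSCs and those with TGF-β1, while their summed level stayed within the same range. In untreated MSCs the 6 class 3 genes among them made up 83.6% ± 1.13 (SD, n = 3) of the summed FPKM of the 10 genes, and with TGF-β1 they made up 24.7% ± 4.51. Sema7a went from 6.15% ± 0.517 to 67.1% ± 4.96. Untreated MSCs had a summed FPKM of the 10 genes of 21.5 ± 1.15, against 20.8 ± 0.846 with TGF-β1, 21.4 ± 1.59 with M-MDSC supernatant beside TGF-β1 and 21.7 ± 1.13 with G-MDSC supernatant beside it. These sums overlapped between all groups, and the highest library was 1.17 times the lowest. With the other semaphorins added, the sum over all 20 genes lay between 28.2 and 34.1 FPKM. Of that sum, the same 6 class 3 genes made up 57.5% ± 2.15 in untreated MSCs and 17.2% ± 4.22 with TGF-β1, and Sema7a 4.23% ± 0.300 and 46.3% ± 1.22. Sema4c, which is not among the 10 genes, was second to Sema7a with TGF-β1, at 6.37 FPKM. Of the sum over the 10 genes, class 3 made up 31.5% ± 4.25 with added M-MDSC supernatant and 27.9% ± 6.44 with added G-MDSC supernatant, which overlapped the share with TGF-β1 alone.

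**Figure D1:**
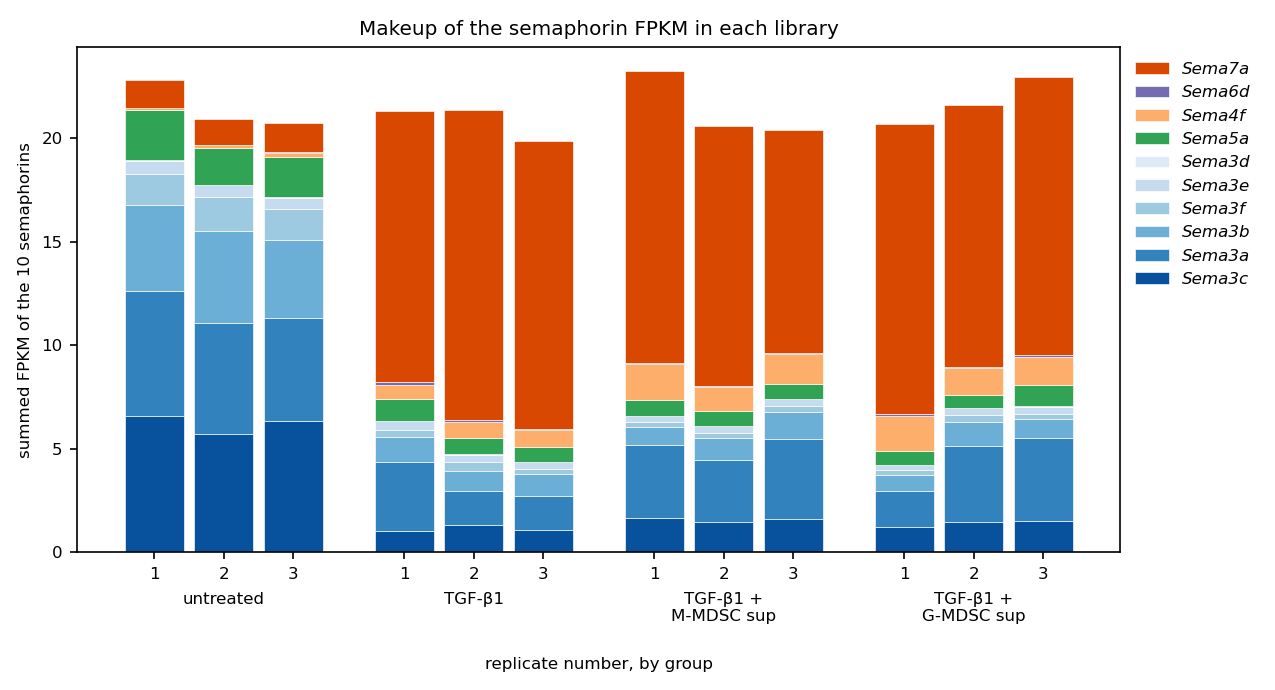
Stacked bars show the summed FPKM (linear axis from 0) of the 10 semaphorins in each of the 12 libraries, split by gene and arranged by group, with "sup" for supernatant. The blue class 3 segments fill at least 82.8% of each untreated bar and the orange Sema7a segment at least 52.7% of each bar with TGF-β1, while the bars reach 19.9 to 23.2 FPKM.

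Of the 7 tested members, Sema7a and Sema4f rose and Sema3a, Sema3b, Sema3c, Sema3f and Sema5a fell with TGF-β1, each at a Benjamini-Hochberg adjusted p under 0.05 in edgeR's quasi-likelihood test. Of all 12016 genes tested, 34.0% were called in that comparison, 16.1% as higher and 17.9% as lower. All 7 also met the rule of the study, a fold above 2 or below 0.5 with an unadjusted p under 0.05, which 6.74% of all tested genes met. The FPKM of the groups did not overlap for any of the 7, nor for 46.7% of all tested genes.

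Sema7a, the lipid-anchored semaphorin, binds β1 integrins and plexin-C1 and is known in mouse lung for a part in fibrosis driven by TGF-β1. The gene (ENSMUSG00000038264) lies on the plus strand at chr9:57940112-57962865 of GRCm38. Its FPKM was 1.33, 1.23 and 1.40 in untreated MSCs and 13.1, 15.0 and 13.9 with TGF-β1. It was 14.1, 12.6 and 10.7 with M-MDSC supernatant beside TGF-β1 and 14.0, 12.6 and 13.4 with G-MDSC supernatant beside it. Every library with TGF-β1 stood far above every untreated one, and the 3 groups with TGF-β1 overlapped. The log2 fold change with TGF-β1 was 3.46 ± 0.11 (SE), an 11.0-fold rise (edgeR adjusted p = 3.24e-09) and number 33 from the top among the tested genes. Sema7a was member number 6 by level in untreated MSCs and number 1 in each group with TGF-β1, where its range did not overlap that of the next member.

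Likeness in log2(FPKM + 1) over the 12 libraries was searched among tested genes outside the members and the listed partner and marker genes. Of these, the most like Sema7a were Col5a3, a fibrillar collagen chain (Pearson r = 0.999), and Itga5, the α5 subunit of the fibronectin receptor (r = 0.998). Col5a3 was at 0.400 ± 0.0477 FPKM in untreated MSCs and 31.1 ± 2.76 FPKM with TGF-β1, and Itga5 at 45.0 ± 2.08 and 196 ± 10.1 FPKM. The libraries fall into untreated and treated clusters, and these values of r describe that split.

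The promoter of Sema7a is shown because this member changed most between untreated MSCs and TGF-β1 alone. RefSeq gives 300 bases, 250 before and 50 from the start, at chr9:57939862-57940161 on the plus strand of GRCm38.p6. Capitals mark the core SMAD-binding element CAGAC, read by factors that carry the TGF-β signal, and the GC box GGGCGG, read by Sp1-type factors, on either strand.
Sema7a: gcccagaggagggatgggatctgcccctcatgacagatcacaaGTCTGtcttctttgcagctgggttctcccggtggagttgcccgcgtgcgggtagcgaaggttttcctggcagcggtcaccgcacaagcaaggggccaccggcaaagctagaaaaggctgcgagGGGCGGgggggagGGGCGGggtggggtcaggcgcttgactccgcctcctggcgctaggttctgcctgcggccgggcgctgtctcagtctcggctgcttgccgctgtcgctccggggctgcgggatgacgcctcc
The window held a CAGAC core 207 bases before the start and GC boxes 84 and 71 bases before it. It was 67.3% G and C, against a median of 52.7% over 32851 promoters.

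Sema4f, a membrane-spanning class 4 semaphorin found at synapses, was the other member that rose. The gene (ENSMUSG00000000627) lies on the minus strand at chr6:82911885-82939769. Its FPKM was 0.0780, 0.128 and 0.191 in untreated MSCs and 0.684, 0.810 and 0.808 with TGF-β1. It was 1.74, 1.13 and 1.48 with M-MDSC supernatant beside TGF-β1 and 1.69, 1.32 and 1.38 with G-MDSC supernatant beside it. Untreated MSCs, TGF-β1 alone and TGF-β1 with supernatant formed 3 steps with no overlap, and the supernatant groups overlapped each other. With TGF-β1 the log2 fold change was 2.58 ± 0.28, a 5.98-fold rise from a low level (edgeR adjusted p = 3.7e-05). On the log2(FPKM + 1) scale, which understates the change of low genes, limma gave 0.64 for Sema4f.

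Of the genes searched, those most like Sema4f over the 12 libraries were Ppa1, an inorganic pyrophosphatase (r = 0.984), and Bpifc (r = 0.980). Bpifc was at 0.0810 ± 0.0342 FPKM in untreated MSCs, 0.728 ± 0.0485 with TGF-β1, 1.33 ± 0.134 with M-MDSC supernatant beside TGF-β1 and 1.39 ± 0.190 with G-MDSC supernatant beside it. Ppa1 was at 65.3 ± 0.760, 84.7 ± 3.11, 101 ± 5.78 and 98.5 ± 5.47 FPKM in these groups.

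The Sema4f promoter, at chr6:82939720-82940019 on the minus strand, is shown as that of the other member that rose, with the same marks.
Sema4f: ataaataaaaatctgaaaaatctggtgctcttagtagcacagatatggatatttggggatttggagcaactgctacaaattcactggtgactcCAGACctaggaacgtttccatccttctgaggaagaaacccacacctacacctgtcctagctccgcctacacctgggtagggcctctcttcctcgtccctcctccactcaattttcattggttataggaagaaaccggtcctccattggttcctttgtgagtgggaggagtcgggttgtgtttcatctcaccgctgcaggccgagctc
It held a CAGAC core 157 bases before the start and no GC box, and was 48.7% G and C. The Sema3a window, at chr5:13396534-13396833 on the plus strand, held none of the motifs searched. It lies at a start inside the gene, not at the 5' end of the annotated gene span.

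**Figure D2:**
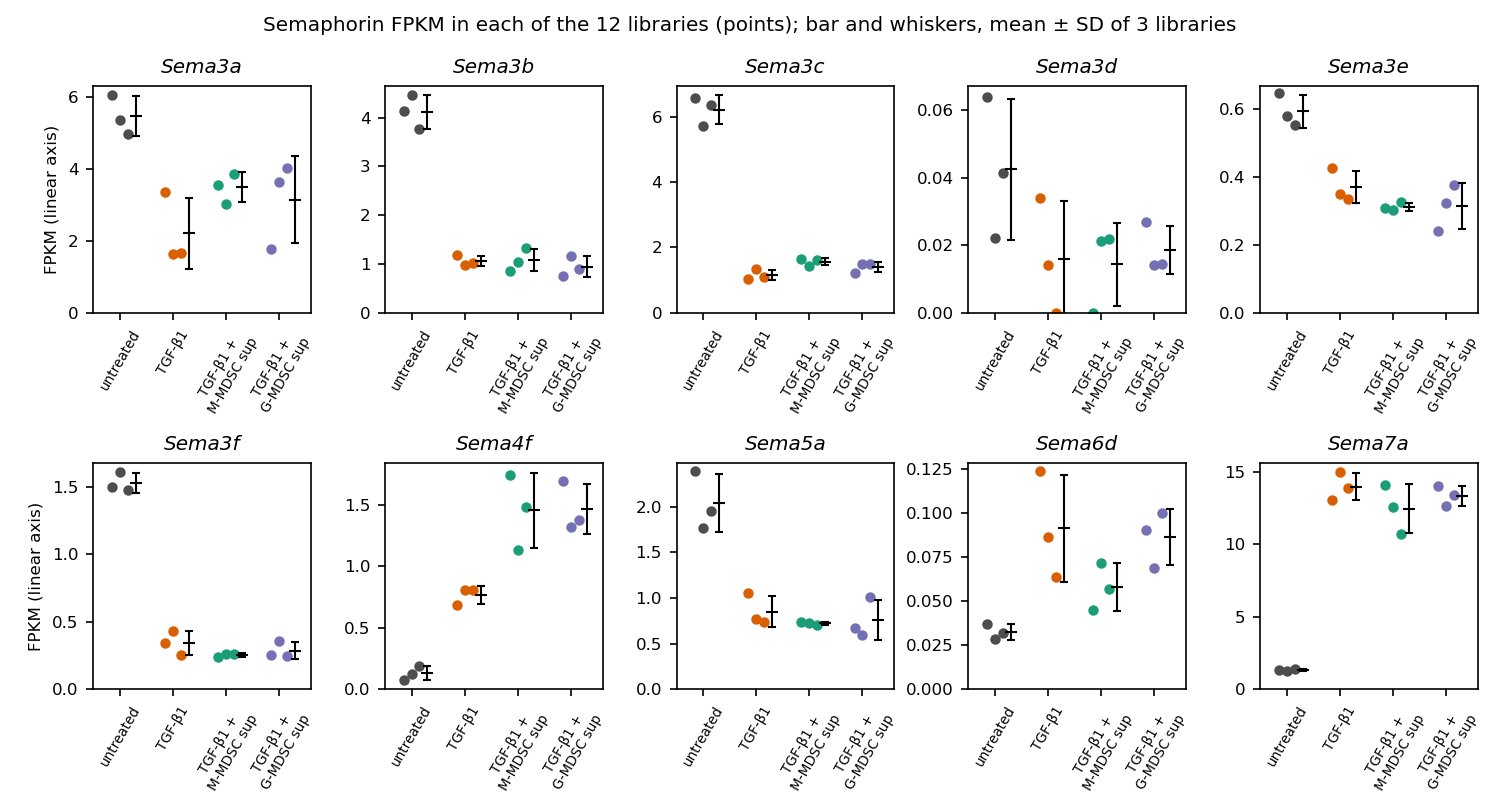
Each panel plots the FPKM of a member (linear axis from 0, scaled per gene) in the 3 libraries of each group as points, with the mean ± SD beside them and "sup" for supernatant. Sema7a stands at a mean of 1.32 FPKM in untreated MSCs and 14.0 FPKM with TGF-β1, and Sema4f stands higher again in the libraries with supernatant. Sema3a, Sema3b, Sema3c, Sema3e, Sema3f and Sema5a stand lower in all libraries with TGF-β1 than in all untreated ones.

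The tested members of class 3 all fell with TGF-β1. Sema3c, which guides neural crest cells into the outflow tract of the heart, is encoded at chr5:17574281-17730268 on the plus strand (ENSMUSG00000028780). Its FPKM was 6.57, 5.71 and 6.35 in untreated MSCs and 1.03, 1.34 and 1.09 with TGF-β1. It was 1.64, 1.45 and 1.62 with M-MDSC supernatant beside TGF-β1 and 1.21, 1.48 and 1.50 with G-MDSC supernatant beside it. All untreated libraries lay above all others, and those with M-MDSC supernatant lay just above those with TGF-β1 alone. Sema3c fell by 2.37 ± 0.12 on the log2 scale with TGF-β1 (edgeR adjusted p = 1.16e-07), the largest fall among the members.

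Of the genes searched, those most like Sema3c were Ezr, which encodes the actin linker ezrin (r = 0.995), and Lbp, the lipopolysaccharide-binding protein (r = 0.995). Ezr was at 67.0 ± 0.788 FPKM in untreated MSCs and 37.9 ± 0.878 with TGF-β1, and Lbp at 1.99 ± 0.125 and 0.267 ± 0.0413.

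The promoter of Sema3c, at chr5:17574566-17574865 on the plus strand, is shown as that of the member that fell most between untreated MSCs and TGF-β1 alone. Its RefSeq start lies 50 bases from the nearest GENCODE start.
Sema3c: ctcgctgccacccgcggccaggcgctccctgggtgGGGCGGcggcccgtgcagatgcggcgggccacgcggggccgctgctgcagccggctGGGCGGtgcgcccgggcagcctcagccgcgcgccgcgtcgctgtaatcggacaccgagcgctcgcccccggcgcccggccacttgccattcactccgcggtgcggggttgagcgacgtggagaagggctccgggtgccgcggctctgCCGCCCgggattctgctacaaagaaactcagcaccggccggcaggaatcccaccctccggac
It held GC boxes 215, 159 and 12 bases before the start and no CAGAC core, and was 75.7% G and C.

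Sema3a, the founding axon repellent, signals through neuropilin-1 and protects bone, and lies at chr5:13125414-13600988 on the plus strand (ENSMUSG00000028883). Its FPKM was 6.06, 5.36 and 4.97 in untreated MSCs and 3.35, 1.62 and 1.65 with TGF-β1. It was 3.55, 3.03 and 3.86 with M-MDSC supernatant beside TGF-β1 and 1.76, 3.64 and 4.02 with G-MDSC supernatant beside it. Replicate 1 with TGF-β1 stood well above the others of its group, and replicate 1 with G-MDSC supernatant stood well below its own. Sema3a fell by 1.25 ± 0.33 on the log2 scale with TGF-β1 (edgeR adjusted p = 0.013). Without replicate 2 of the TGF-β1 group the value was -1.07 and the call was lost (edgeR adjusted p = 0.0529). Of the genes searched, Mtor (r = 0.930), the kinase that senses nutrients, and Oxsr1 (r = 0.910), a kinase of the osmotic stress response, were most like Sema3a. Both were less close than those of the other members examined.

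Sema3b and Sema3f, both regarded as tumour suppressors, lie 72.3 kb apart on the minus strand of chromosome 9, Sema3b at chr9:107597674-107609229 (ENSMUSG00000057969) and Sema3f at chr9:107681500-107710475 (ENSMUSG00000034684). The FPKM of Sema3b was 4.13, 4.46 and 3.77 in untreated MSCs and 1.18, 0.981 and 1.03 with TGF-β1. It was 0.867, 1.04 and 1.32 with M-MDSC supernatant beside TGF-β1 and 0.746, 1.17 and 0.907 with G-MDSC supernatant beside it. The untreated libraries stood apart, and the groups with TGF-β1 overlapped. Sema3b fell by 1.89 ± 0.18 on the log2 scale with TGF-β1 (edgeR adjusted p = 1.65e-05).

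Sema3f, a ligand of neuropilin-2, had an FPKM of 1.50, 1.61 and 1.47 in untreated MSCs and of 0.343, 0.433 and 0.256 with TGF-β1. It was 0.238, 0.260 and 0.264 with M-MDSC supernatant beside TGF-β1 and 0.254, 0.358 and 0.244 with G-MDSC supernatant beside it. Again the untreated libraries alone stood high. Sema3f fell by 2.07 ± 0.20 on the log2 scale with TGF-β1 (edgeR adjusted p = 1.65e-05), and limma on log2(FPKM + 1) gave -0.91 for Sema3f.

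Sema5a, a membrane-spanning protein with thrombospondin repeats that can attract or repel axons, lies at chr15:32244810-32696341 on the plus strand (ENSMUSG00000022231). Its FPKM was 2.39, 1.77 and 1.95 in untreated MSCs and 1.05, 0.765 and 0.739 with TGF-β1. It was 0.741, 0.723 and 0.702 with M-MDSC supernatant beside TGF-β1 and 0.667, 0.595 and 1.01 with G-MDSC supernatant beside it. All untreated libraries were above all others. Sema5a fell by 1.20 ± 0.20 on the log2 scale with TGF-β1 (edgeR adjusted p = 0.000935), and limma on log2(FPKM + 1) gave -0.71 for Sema5a.

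The Sema5a promoter, at chr15:32244563-32244862 on the plus strand, is shown for its dense GC boxes, some of which overlap or adjoin.
Sema5a: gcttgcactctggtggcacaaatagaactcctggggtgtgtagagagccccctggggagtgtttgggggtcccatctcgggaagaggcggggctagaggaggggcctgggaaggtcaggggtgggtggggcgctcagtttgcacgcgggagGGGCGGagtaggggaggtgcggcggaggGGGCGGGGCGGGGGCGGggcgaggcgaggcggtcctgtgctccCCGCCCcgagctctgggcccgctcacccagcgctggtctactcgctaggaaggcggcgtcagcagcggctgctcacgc
It held GC boxes 99, 71, 66, 60 and 28 bases before the start and no CAGAC core, and was 71.3% G and C.

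The members below the filter were fitted with every gene that had a count. Sema3e, which binds plexin-D1 directly and repels endothelial cells, lies at chr5:14025276-14256689 on the plus strand (ENSMUSG00000063531). Its FPKM was 0.647, 0.579 and 0.553 in untreated MSCs and 0.425, 0.350 and 0.335 with TGF-β1. It was 0.308, 0.302 and 0.325 with M-MDSC supernatant beside TGF-β1 and 0.241, 0.324 and 0.374 with G-MDSC supernatant beside it. The untreated libraries were again the highest, and Sema3e fell by 0.62 ± 0.16 on the log2 scale with TGF-β1 (edgeR without the filter, adjusted p = 0.0228).

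Sema6d, a membrane-spanning ligand of plexin-A1 in the heart, lies at chr2:124089969-124667769 on the plus strand (ENSMUSG00000027200) and was nearly silent. Its counts were 34, 29 and 31 in untreated MSCs, 118, 84 and 61 with TGF-β1, 40, 64 and 53 with M-MDSC supernatant beside TGF-β1 and 90, 65 and 96 with G-MDSC supernatant beside it. All libraries with TGF-β1 exceeded the untreated ones, and Sema6d rose by 1.53 ± 0.31 on the log2 scale with TGF-β1 (edgeR without the filter, adjusted p = 0.0049), at a mean of 0.0913 FPKM. Sema3d, which patterns veins and the neural crest, lies at chr5:12383385-12588948 on the plus strand (ENSMUSG00000040254). Its counts were 47, 18 and 32 in untreated MSCs, 27, 12 and 0 with TGF-β1, 0, 16 and 17 with M-MDSC supernatant beside TGF-β1 and 22, 11 and 12 with G-MDSC supernatant beside it. A difference between untreated and TGF-β1 was not detectable for Sema3d at this depth (log2 fold change -1.28 ± 1.21, edgeR without the filter, adjusted p = 0.583).

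In the order of levels in untreated MSCs, Sema3c and Sema3a overlapped at the top and were followed by Sema3b, Sema5a, Sema3f, Sema7a, Sema3e and Sema4f without overlap between neighbours, with Sema3d and Sema6d overlapping at the bottom. With TGF-β1 the order was Sema7a and then Sema3a, followed by Sema3c, Sema3b, Sema5a and Sema4f, each of which overlapped the next, then Sema3e and Sema3f, which overlapped, and then Sema6d and Sema3d. With either supernatant Sema4f overlapped Sema3c, at number 4 for M-MDSC supernatant and number 3 for G-MDSC supernatant. Over the 12 libraries the log2(FPKM + 1) of Sema3b, Sema3c, Sema3f and Sema5a had pairwise r of 0.926 to 0.982, and Sema3a had r of 0.674 to 0.763 with them. All these points share the split between untreated and treated libraries.

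The 4 class 3 members on chromosome 5 lie on its plus strand within 5.35 Mb, in the order Sema3d, Sema3a, Sema3e and Sema3c. Annotated genes that overlap a member had 18 counts at most in a library.

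Of the members, 8 matched a RefSeq promoter, with 9 promoters in all because Sema6d had a pair, and Sema3b and Sema3f had no entry. The RefSeq start of Sema3d lies 219 bases from the nearest GENCODE start, and that of Sema3a lies inside the gene. CAGAC or its complement GTCTG occurred in 4 of the 9, those of Sema3d, Sema4f, Sema7a and one of Sema6d, and in 49.6% of all 32851 promoters. GGGCGG or CCGCCC occurred in 5 of the 9, those of Sema3c, Sema3e, Sema5a, Sema7a and the other of Sema6d, and in 35.7% of all. The SMAD palindrome GTCTAGAC (0.213% of all promoters), the AP-1 site TGACTCA (5.2%), the TEAD site CATTCC (14.7%) and the TATA box TATAAA (13.6%), each searched on both strands, occurred in 0 of the 9. A match describes letters in the window and is no sign of binding.

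The next comparisons asked what MDSC supernatant changed in MSCs that also had TGF-β1. They share the 3 libraries with TGF-β1 alone, also with the comparison above. With M-MDSC supernatant against TGF-β1 alone, 0 of the 7 tested members were called by edgeR, where 4.78% of all tested genes were, and 3 had an unadjusted p under 0.05, as had 16.7% of all tested genes. Sema4f was 1.86-fold higher with M-MDSC supernatant (log2 fold change 0.89 ± 0.26, edgeR adjusted p = 0.0925, 0.00673 to 0.255 over the alternative fits), and all 3 libraries lay above all 3 with TGF-β1 alone. Sema3c was 1.34-fold higher, also without overlap (0.42 ± 0.12, edgeR adjusted p = 0.0786, 0.0137 to 0.24 over the alternative fits). Groups without overlap made up 24.0% of all tested genes in this comparison. Sema3f had a log2 fold change of -0.45 ± 0.20 (edgeR adjusted p = 0.297). DESeq2 called 2 members, Sema4f and Sema3c, and 6.94% of the 11968 genes it gave an adjusted p, and limma on log2(FPKM + 1) called 1, Sema4f, and 4.49% of all tested genes.

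With G-MDSC supernatant against TGF-β1 alone, edgeR called 0 of the 7, where it called 5.56% of all tested genes, and 1 member, Sema4f, had an unadjusted p under 0.05, as had 17.2% of all tested genes. Sema4f was 1.87-fold higher (0.90 ± 0.26, edgeR adjusted p = 0.078, 0.00559 to 0.237 over the alternative fits), again without overlap, as were 22.7% of all tested genes. DESeq2 and limma on log2(FPKM + 1) each called Sema4f and no other member, beside 8.27% and 5.61% of the genes they tested. The summed FPKM of the 14 myeloid markers was higher in the libraries with supernatant than with TGF-β1 alone, and of the 4 markers tested edgeR called 1, Lyz2, in each comparison. Lyz2, a lysozyme of myeloid cells, was at 0.0572 ± 0.0502 FPKM with TGF-β1, 1.54 ± 0.828 with added M-MDSC supernatant and 1.87 ± 0.281 with added G-MDSC supernatant. Ly6g, Ly6c2 and Csf1r were not called. Lyz2 passed the filter only through libraries with supernatant, and Ly6g and Ly6c2 only through untreated ones. A difference between some groups was thus bound to arise for them, and these calls are given as a description. The part of the myeloid markers in the Sema4f and Sema3c values was not tested. Ptprc, which marks all leukocytes, had 26 counts at most in a library.

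Against TGF-β1 alone, the intervals of Sema7a, Sema3a, Sema3b and Sema5a included 0 for both supernatants. The 95% interval of the log2 fold change of Sema7a was -0.40 to 0.03 for the M-MDSC supernatant and -0.31 to 0.12 for the G-MDSC supernatant. That of Sema3a was -0.09 to 1.35 and -0.24 to 1.20, and that of Sema3b was -0.40 to 0.40 and -0.60 to 0.20. For Sema5a it was -0.71 to 0.19 and -0.64 to 0.26. For Sema3f it was -0.89 to -0.0015 for the M-MDSC supernatant and -0.74 to 0.15 for the G-MDSC supernatant, and for Sema3c 0.16 to 0.68 and -0.0080 to 0.51. The intervals of Sema3a leave room for more than a 2-fold rise, whereas those of Sema7a do not reach a 2-fold change in either direction.

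Between the supernatants, edgeR called 0 of the 7 members, where it called 0.125% of all tested genes, and 0 had an unadjusted p under 0.05, as against 6.33% of all tested genes. DESeq2 and limma on log2(FPKM + 1) called 0 as well, beside 1.01% and 0.325% of the genes they tested. The interval of the M-MDSC minus G-MDSC log2 difference was -0.57 to 0.56 for Sema4f, -0.31 to 0.12 for Sema7a, -0.09 to 0.43 for Sema3c and -0.57 to 0.87 for Sema3a.

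**Figure D3:**
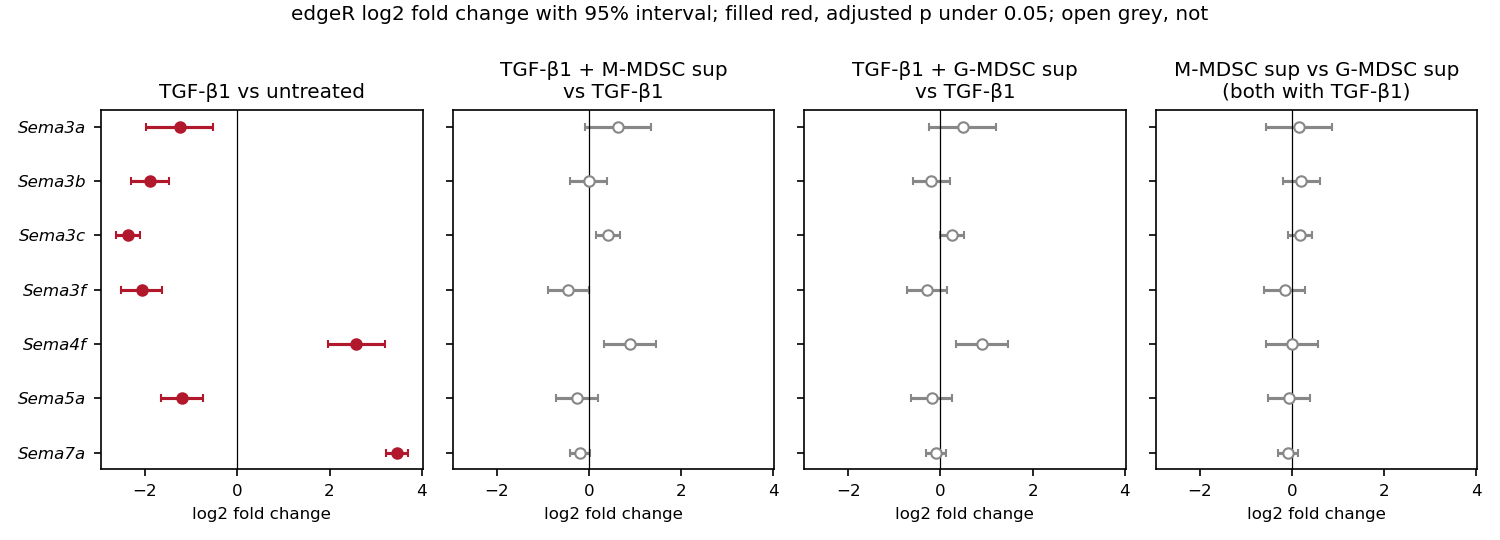
Points are edgeR log2 fold changes of the 7 tested members in 4 comparisons, with bars for 95% intervals, filled red at an adjusted p under 0.05 and open grey otherwise, and "sup" for supernatant. All 7 are red against untreated MSCs and none is in the other panels, where Sema4f lies at 0.89 and 0.90 with the supernatants.

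The supernatant groups were also set against untreated MSCs, which shares the untreated libraries with the comparison above. With TGF-β1/M-MDSC supernatant 6 of the 7 tested members were called (35.2% of all tested genes), and with TGF-β1/G-MDSC supernatant 6 (34.8%). Sema7a had log2 fold changes of 3.27 ± 0.11 and 3.37 ± 0.11, and Sema4f of 3.47 ± 0.29 and 3.48 ± 0.29. Sema3f had -2.52 ± 0.21 and -2.37 ± 0.21, Sema3c -1.95 ± 0.12 and -2.12 ± 0.12, Sema3b -1.89 ± 0.19 and -2.09 ± 0.19, and Sema5a -1.46 ± 0.21 and -1.39 ± 0.20. The member not called was Sema3a, at -0.62 ± 0.32 (edgeR adjusted p = 0.176, 0.00722 to 0.346 over the alternative fits) and -0.77 ± 0.33 (edgeR adjusted p = 0.0945, 0.0401 to 0.246 over the alternative fits), although all untreated libraries were higher. The groups did not overlap for any of the 7 in either comparison, nor for 47.4% and 46.0% of all tested genes.

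Among the partners of semaphorins, 46 of 68 listed genes were tested, and with TGF-β1 12 rose, 15 fell and 19 were not called, so that 27 of 46 were called where 34.0% of all tested genes were. With TGF-β1/M-MDSC supernatant against untreated MSCs 27 were called (35.2% of all tested genes), and with TGF-β1/G-MDSC supernatant 29 (34.8%), among them Farp1 (-0.20 and -0.25) and Arhgef11 (-0.19 and -0.22) as lower with both and Gipc1 (-0.12) as lower with G-MDSC supernatant. Of the other 10 semaphorins, 2 were tested. Sema4b, a membrane-spanning class 4 protein, fell from 3.51 ± 0.171 to 1.98 ± 0.263 FPKM (log2 fold change -0.77 ± 0.10, edgeR adjusted p = 0.000176). Sema4c, a ligand of plexin-B2, was at 4.49 ± 1.06 and 6.37 ± 1.55 FPKM with overlapping groups (edgeR adjusted p = 0.0862). It was called higher with TGF-β1/G-MDSC supernatant against untreated MSCs, at a log2 fold change of 0.77.

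Of 9 plexins, the receptors that signal for semaphorins, 5 were tested, with a median log2 fold change of -0.05 with TGF-β1. Plxnd1, the receptor of Sema3e, rose from 2.66 ± 0.182 to 3.91 ± 0.395 FPKM (0.61 ± 0.09, edgeR adjusted p = 0.000425). Plxna3 fell from 1.89 ± 0.140 to 1.36 ± 0.170 FPKM (-0.41 ± 0.10, edgeR adjusted p = 0.00927). Plxnb2 and Plxna1 were the plexins of highest level, at 41.1 ± 1.83 and 30.4 ± 1.07 FPKM in untreated MSCs, and neither they nor Plxnb1 were called (log2 fold changes -0.05, -0.20 and 0.15). Plxna1 and Plxna3 were called lower with both supernatants against untreated MSCs, Plxnb2 with G-MDSC supernatant, and Plxnd1 higher with both, whereas 0 of 5 were called by edgeR against TGF-β1 alone (4.78% and 5.56% of all tested genes), with 4 at an unadjusted p under 0.05 for M-MDSC and 1 for G-MDSC supernatant, as had 16.7% and 17.2% of all tested genes. Plxnc1, the plexin that binds Sema7a, had 55 counts at most in a library.

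A plexin below the filter, named after its values were seen, was Plxna4, a receptor for Sema3a with neuropilin-1. It had 38, 16 and 16 counts in untreated MSCs and 1219, 1313 and 1134 with TGF-β1. It had 811, 667 and 642 counts with M-MDSC supernatant beside TGF-β1 and 853, 734 and 755 with G-MDSC supernatant beside it. The level rose from 0.0181 ± 0.0113 to 0.960 ± 0.0605 FPKM with TGF-β1 (log2 fold change 5.74 ± 0.30, edgeR without the filter, adjusted p = 1.25e-07) and was 0.596 ± 0.0854 and 0.609 ± 0.0276 FPKM with the supernatants. Against TGF-β1 alone Plxna4 was not called, at -0.70 ± 0.23 for the M-MDSC supernatant (edgeR without the filter, adjusted p = 0.236) and -0.68 ± 0.23 for the G-MDSC supernatant (adjusted p = 0.225). Also below the filter and named after their values were seen, Nrcam, an adhesion molecule of semaphorin receptor complexes, went from 0.963 ± 0.103 to 0.121 ± 0.0355 FPKM (-2.93 ± 0.21, edgeR without the filter, adjusted p = 2.02e-06), and Sema6b from 0.882 ± 0.0991 to 0.242 ± 0.0310 FPKM (-1.80 ± 0.29, adjusted p = 0.00102).

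All 6 tested receptors outside the plexins were called with TGF-β1, 4 higher and 2 lower, where 16.1% of all tested genes were called higher and 17.9% lower. Nrp1, which encodes neuropilin-1, had an FPKM of 8.09, 7.00 and 6.89 in untreated MSCs and 9.61, 9.17 and 8.18 with TGF-β1. It was 6.46, 6.35 and 6.21 with M-MDSC supernatant beside TGF-β1 and 6.08, 5.93 and 7.23 with G-MDSC supernatant beside it. The TGF-β1 group stood above the other 3 groups without overlap. Nrp1 rose with TGF-β1 (0.35 ± 0.09, edgeR adjusted p = 0.0114) and fell against TGF-β1 alone with M-MDSC supernatant (-0.53 ± 0.09, edgeR adjusted p = 0.00675) and G-MDSC supernatant (-0.51 ± 0.09, edgeR adjusted p = 0.00671).

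Of the others, Lrig3 rose by 0.26 on the log2 scale and Erbb2 fell by 0.23. Nrp2, for neuropilin-2, was at 10.2 ± 1.20 and 11.8 ± 0.974 FPKM with overlapping groups (0.27 ± 0.09, edgeR adjusted p = 0.0344), and at 12.1 ± 0.301 and 11.5 ± 0.762 FPKM with the supernatants. Itgb1, the β1 integrin that Sema7a binds and also one of the MSC markers used, rose from 254 to 385 FPKM (0.66 ± 0.03, edgeR adjusted p = 8.39e-08), whereas its partner in that binding, Itga1, had a mean of 0.351 FPKM at most in any group. Met, the receptor of hepatocyte growth factor that associates with plexin-B receptors, fell from 7.78 ± 0.533 to 3.68 ± 0.314 FPKM (-1.02 ± 0.11, edgeR adjusted p = 4.07e-05).

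Of 30 effectors inside the cell, 27 were tested, with a median log2 fold change of -0.09 with TGF-β1, and 5 rose and 10 fell, so that 15 of 27 were called where 34.0% of all tested genes were. The 3 Mical genes, whose enzymes take actin filaments apart by oxidising them, rose by 0.97, 0.70 and 0.46 on the log2 scale, and so did Fyn, a kinase of the Sema3a pathway, by 0.75. Rras2, an R-Ras GTPase of the kind plexins switch off, fell from 38.8 to 18.6 FPKM (-1.01 ± 0.08, edgeR adjusted p = 4.75e-06). Fer, a kinase related to Fes, was at 14.9 ± 0.302 FPKM in untreated MSCs and 11.1 ± 0.465 with TGF-β1 (-0.37 ± 0.04, edgeR adjusted p = 7.51e-05). It was called higher against TGF-β1 alone with M-MDSC supernatant (0.43 ± 0.04, edgeR adjusted p = 0.000139) and G-MDSC supernatant (0.37 ± 0.04, edgeR adjusted p = 0.00046), back to 15.3 ± 0.583 and 14.7 ± 0.295 FPKM. Dpysl3, a collapsin response mediator, fell in all of these steps, by 0.21 with TGF-β1 and by a further 0.31 and 0.35 on the log2 scale with the supernatants, and Farp1 fell with G-MDSC supernatant by 0.16.

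Of 7 proteases that cut semaphorins, 6 were tested. Pcsk6, a furin-like convertase, fell from 4.47 to 1.53 FPKM (-1.49 ± 0.11, edgeR adjusted p = 2.7e-06), whereas Furin rose by 0.56 and Mmp14, a membrane metalloprotease, by 0.50 on the log2 scale. Against TGF-β1 alone, the partner genes called were Nrp1, Dpysl3 and Fer with M-MDSC supernatant (3 of 46) and these with Farp1 for G-MDSC supernatant (4 of 46), beside 4.78% and 5.56% of all tested genes, and 0 of 46 were called by edgeR between the supernatants (0.125% of all tested genes), with 3 at an unadjusted p under 0.05, as had 6.33% of all tested genes. The part of the myeloid markers given above in these values was not tested.

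**Figure D4:**
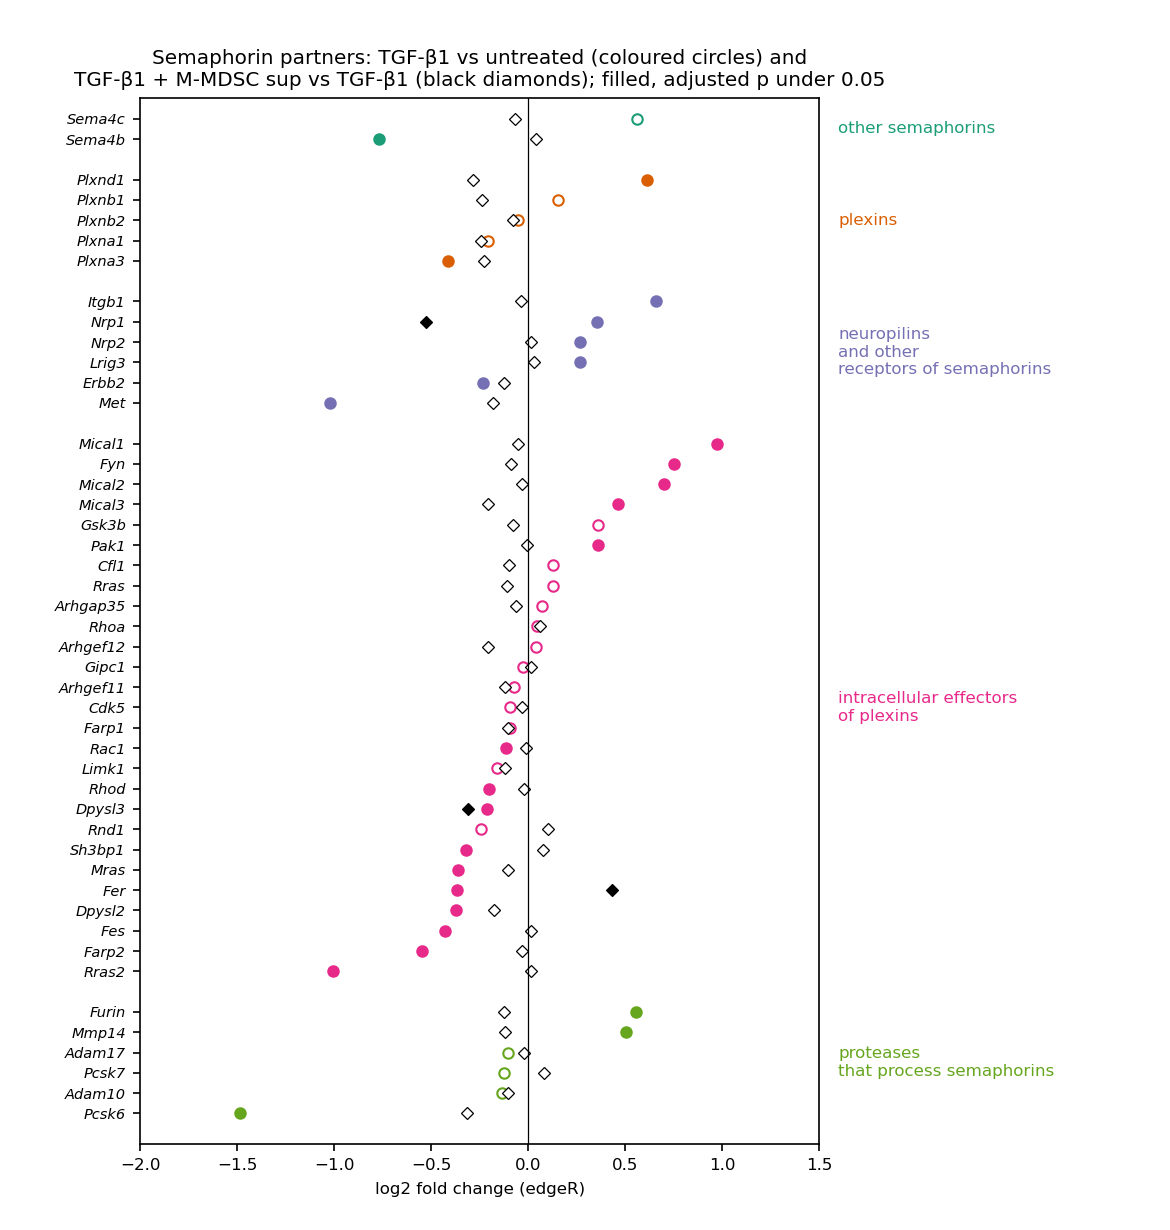
Circles are edgeR log2 fold changes of the 46 tested partner genes with TGF-β1 against untreated MSCs, coloured by list, and black diamonds those with M-MDSC supernatant ("sup") against TGF-β1 alone, filled at an adjusted p under 0.05. Filled circles lie on both sides of 0, from -1.49 for Pcsk6 to 0.97 for Mical1, and the filled diamonds are Nrp1, Dpysl3 and Fer.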

How the data were processed

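RNA of 12 libraries of cultured mouse MSCs, 3 in each of 4 groups, was sequenced after poly(A) selection with a strand-marking kit. The authors deposited a table that holds both read counts and FPKM values per gene. Per the labels, reads were trimmed with cutadapt 1.9, aligned with HISAT2 2.0.4 and assembled with StringTie 1.3.4d. The study's methods name Fastp for checking read quality, and the same aligner and assembler, with GRCm38 as the genome. The counting tool and its strand setting were not given in the sources used here. A count of 0 was written as an FPKM of 0.0001 in the deposited table and was taken as 0.

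Groups came from the treatment labels. Genes whose FPKM was 1 or more in 3 or more libraries (12016 of 55401) were fitted on the deposited counts with edgeR 4.0.16 (R 4.3.3), TMM scaling and the quasi-likelihood test, all 4 groups in 1 fit, with Benjamini-Hochberg adjustment across the tested genes. Errors of log2 fold changes are standard errors, intervals are 95% intervals, and levels are means ± SD. The 6 pairwise comparisons share libraries. Alternatives were no filter, median-ratio scaling, DESeq2 1.42.0, limma 3.58.1 on log2(FPKM + 1) and log2(FPKM + 0.1), edgeR on the 2 groups compared, the replicate number as a block, counts divided by 4, and each library left out in turn. Among counts of 1 to 12, 44.3% were 4, 8 or 12, so low counts may be less precise than counting error alone gives. Same-group libraries varied by 9.6 to 20.8 times the counting variance. That value is a median over the tested genes and does not describe low counts in particular. The procedure was tested on simulated counts.

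The members and the lists of partner and marker genes were chosen with earlier results of these data known. Besides the members, the text names partner genes called with an absolute log2 fold change of at least 1, plexins and neuropilins that passed the filter, and partner genes called in the other comparisons. It also names the 2 tested genes outside these lists most like each of 4 members. Plxna4, Plxnc1, Nrcam, Sema6b, Itga1, single marker genes and partner genes with smaller changes were named after their values were seen. Figures were drawn with matplotlib 3.10.9 in Python 3.11.15.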

Additional observations from a re-analysis of the deposited data

How the results depend on the processing

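With TGF-β1 against untreated MSCs the direction of all 7 tested members held under every alternative, and 139 of the refitted values kept their call while 1, Sema3a without replicate 2 of the TGF-β1 group, lost it. Leaving out a library gave 6 to 7 members, 3514 to 4094 genes and 24 to 29 partner genes called, against 4082 genes in the full fit. By the rule of the study, genes called numbered 810 in place of 4082 with TGF-β1, 262 in place of 574 with M-MDSC supernatant against TGF-β1, 261 in place of 668 with G-MDSC supernatant against TGF-β1, 66 in place of 15 between supernatants, 839 in place of 4234 with M-MDSC supernatant against untreated and 817 in place of 4187 with G-MDSC supernatant against untreated. For M-MDSC supernatant against TGF-β1, members called were 2 with DESeq2, 1 with limma on log2(FPKM + 1), 1 with counts divided by 4 and 0 to 1 without a library, and genes called were 351 in the fit of the 2 groups and 355 to 586 without a library. For G-MDSC supernatant against TGF-β1, 1 member was called with DESeq2, both limma fits, the fit of the 2 groups and counts divided by 4, and 0 to 1 without a library, with 455 to 685 genes. Sema4f became called without untreated replicate 1 or 3 in both comparisons, and Sema3c with M-MDSC supernatant without TGF-β1 replicate 2 (log2 fold change 0.54, edgeR adjusted p = 0.0305). Between supernatants, genes called were 121 with DESeq2, 39 with limma on log2(FPKM + 1), 41 in the fit of the 2 groups and 9 to 47 without a library, with 0 to 0 members. Against untreated MSCs, leaving out a library gave 6 to 6 members and 3596 to 4242 genes with M-MDSC supernatant and 6 to 7 members and 3541 to 4159 genes with G-MDSC supernatant. The cause of these shifts was not tested.

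Values near 0 changed sign. Sema3b with M-MDSC supernatant against TGF-β1 went from -0.00 to 0.0078 without the filter, 0.0083 with median-ratio scaling, 0.0085 with DESeq2, 0.0054 and 0.0035 with limma at pseudocounts of 1 and 0.1, 0.0118 in the fit of the 2 groups, and -0.17 to 0.13 without a library. Between supernatants, leaving out a library gave -0.16 to 0.14 for Sema4f, -0.19 to 0.0042 for Sema7a, -0.13 to 0.37 for Sema3a, -0.25 to 0.0285 for Sema3f and -0.21 to 0.20 for Sema5a.

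With the replicate number as a block, no call of a member changed, and the genes called between supernatants went from 15 to 8. Same-numbered libraries did not deviate together (mean correlation -0.00384 over 18 pairs, -0.156 to 0.0778, 0 of them over 0.1, against 0.00197 over 36 pairs of different number), so the numbers were not taken as pairs.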
